A study of Mus musculus with 16 samples.

Results

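Dense stretches of H3K4me1 in the mouse fibroblast cell line 3T3 are described here. They were chosen by position alone, from the 3T3 summit list: autosomal summits 6000 bp or less from their neighbour were chained, and chains of 8 or more were kept. This gave 72 stretches with 651 member summits, 0.808% of the 80558 autosomal 3T3 summits and part of the 161656 summits in both lists together. The second list came from dendritic cells, which present antigen to T cells. Those had been grown in GM-CSF from bone marrow progenitors infected with a retrovirus that carries a hairpin against JmjD2d, a histone demethylase. Neither library was stimulated, the 3T3 cells carry no stated alteration, and no dendritic cell without the hairpin was studied here, so cell type and hairpin cannot be told apart. The other 14 of the series' 16 samples (2 h of LPS at 100 ng/ml or TNF-alpha at 10 ng/ml, acetylated histones and input DNA) were not analysed here either. Each cell type was 1 library, so no difference below was tested against a replicate. The label of the 3T3 library names dendritic cells in its cell type field and 3T3 in its title, description, growth protocol and list header. Cell identity was not checked against marker genes, because the positions are mm9 and no gene was assigned to them.

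H3K4me1 is monomethylation of lysine at position 4 of histone H3, written by methyltransferases of the MLL family. It is found on nucleosomes of primed and active enhancers and beside active promoters, often on both sides of the open site where transcription factors bind, so that an enhancer can give more than 1 summit. Enhancers are known to gather in clusters near genes that define a cell type, which is why stretches of closely spaced summits are of interest in a list of candidate enhancers. Whether any of the 72 stretches acts as an enhancer cluster was not measured.

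The stretches were short runs of closely spaced summits. They held a median of 9 summits and at most 14: 34 stretches held 8, 18 held 9, 12 held 10, 4 held 11, and 1 each held 12 and 13, with 14 in 2 stretches. From first to last summit they spanned a median of 29.4 kb (20.6 to 44.7 kb), and together 2172 kb. Neighbouring members lay a median of 3774 bp apart, and those between the 25th and 75th percentiles lay 2766 to 4774 bp apart. Only 53 of the 579 gaps between members (9.15%) were under 2000 bp, and the closest measured 725 bp. In chains of 2 to 7 summits the gaps had a median of 3723 bp, and 8.69% were under 2000 bp. The rule holds the gaps of both below or at 6000 bp. The stretches ended at gaps of widely varying size, all over 6000 bp by the rule. The next 3T3 summit outside lay a median of 11331 bp away (6024 to 235928 bp). It was within 7000 bp on 17 of the 144 sides and over 20 kb away on 38.

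At the threshold of the rule, the 84 chains of 7 held 588 summits, spanned a median of 22.9 kb and had a median score of 33. The 34 stretches of 8 spanned a median of 25.5 kb and had a median score of 32. The number of stretches followed the rule closely, with 358 when gaps of up to 8000 bp were allowed and 1 with gaps of up to 4000 bp. At least 6 summits in place of 8 gave 405 stretches, and at least 10 gave 20.

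Both stretches of 14 summits combined weak and strong summits. That on chromosome 10 from 116537425 to 116582150 had scores, in order along the chromosome, of 48, 47, 26, 26, 51, 33, 21, 22, 38, 22, 28, 26, 21 and 75. The score is the authors' value per summit and was taken as signal height. It held 9 dendritic cell summits (exact Poisson 95% interval 4.12 to 17.1), and 8 of its 14 members had a dendritic cell summit within 1000 bp. The other stretch of 14, on chromosome 19 from 29984281 to 30028709, opened with its highest score of 88 and ended with 36, and its lowest member scored 16. Inside it were 4 dendritic cell summits, scoring 44, 41, 45 and 26, each within 208 bp of a 3T3 summit. Of its 14 members, 5 had a dendritic cell summit within 1000 bp.

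Stretches with the next largest numbers of summits ranged from many dendritic cell summits to none. On chromosome 11 from 55178605 to 55220004, 13 members with a median score of 29 were joined by 3 dendritic cell summits. At lower coordinates of that chromosome, from 12090765 to 12132405, lay 12 members and no dendritic cell summit (upper limit of the exact Poisson interval 3.69). No dendritic cell summit was called in its flanks either, over its own length of 41640 bp on each side. Its last member scored 120 and the third from the end 90, while 7 of its members scored under 30.

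Among the 4 stretches of 11 summits, that on chromosome 15 from 8606028 to 8648112 also held no dendritic cell summit, with member scores between 20 and 72. The stretch on chromosome 9 from 57081474 to 57124185 held 2 dendritic cell summits, of which the one scoring 110 lay 270 bp from a member scoring 47. That on chromosome 19 from 47019161 to 47056936 held 5. Another, between 103044284 and 103079052 of chromosome 15, held 6. The 10 stretches with the most summits are completed by the longest 2 of the 12 with 10 members, the first from 79033658 to 79076829 of chromosome 3 with 11 dendritic cell summits. The second, between 35858948 and 35900636 of chromosome 17, held 4.

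**Figure D1:**
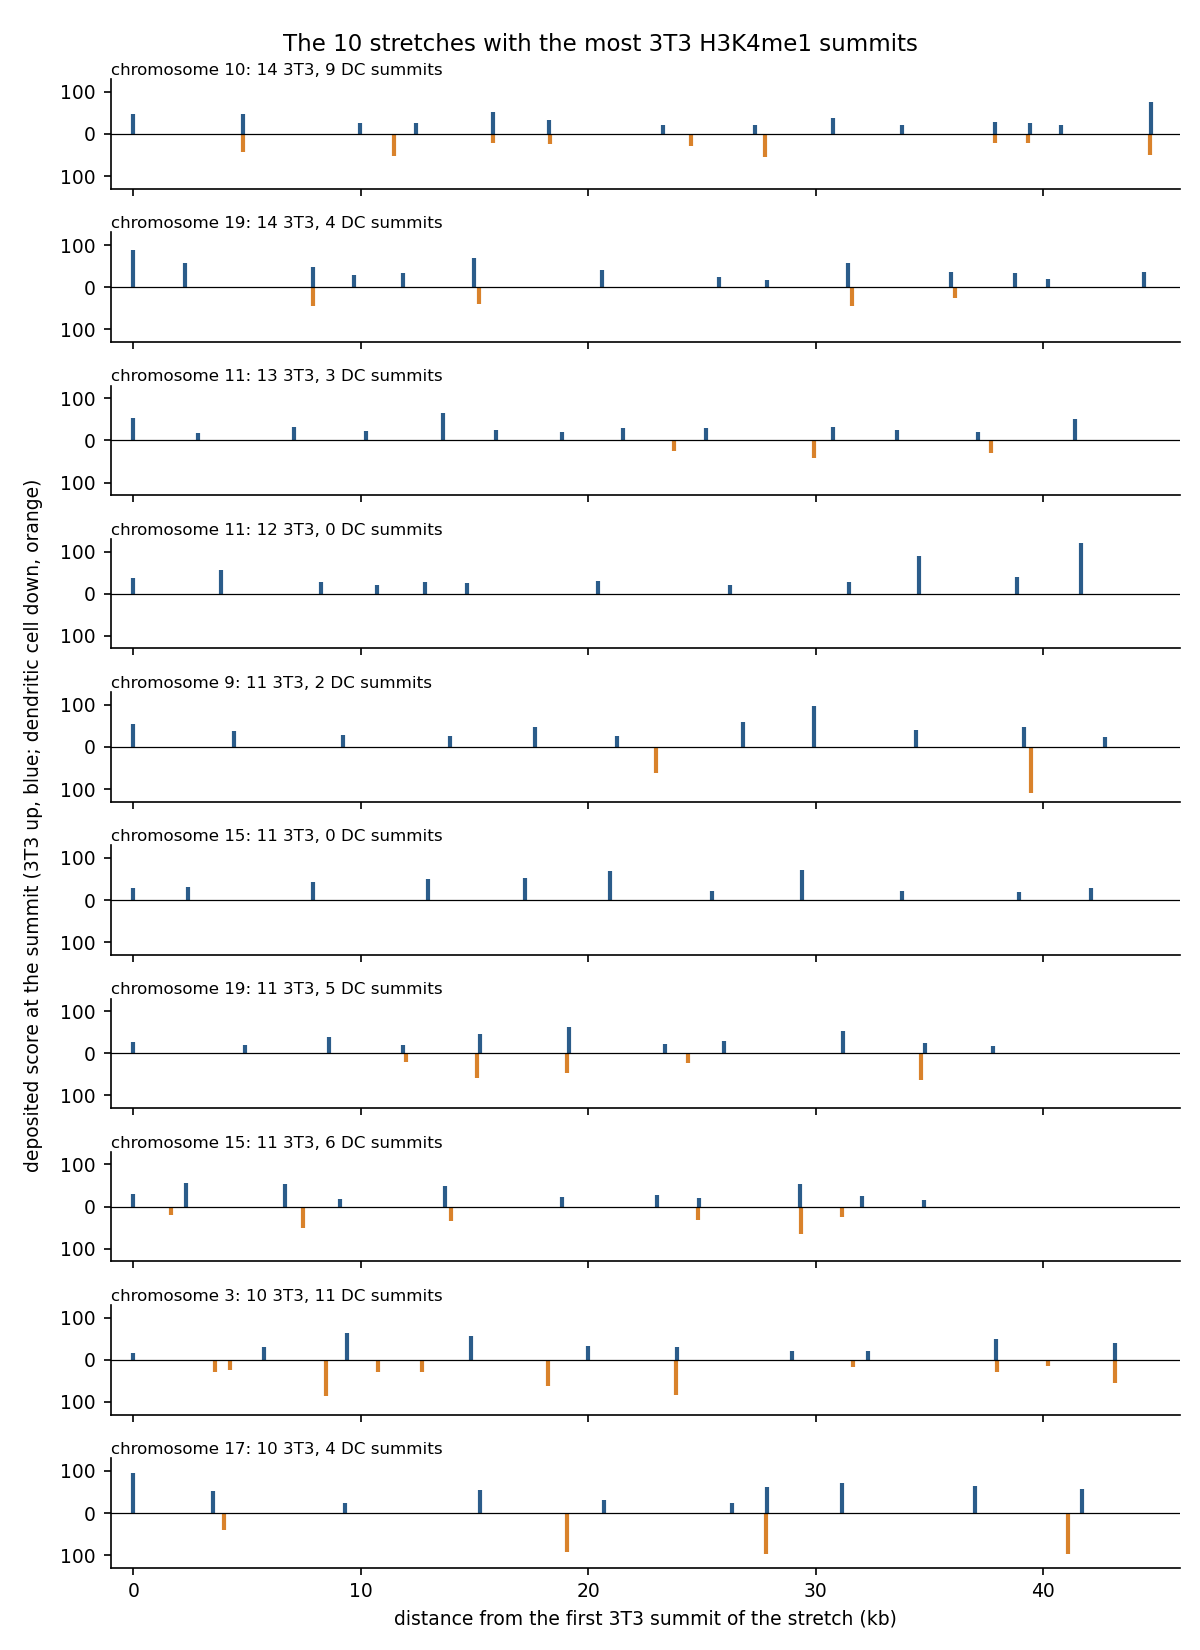
Each panel is 1 of the 10 stretches with the most summits; the x axis is distance from the first 3T3 summit in kb, and lines give the deposited score of each 3T3 summit (up, blue) and each dendritic cell (DC) summit (down, orange). The stretches of 12 summits on chromosome 11 and of 11 on chromosome 15 in the sixth panel show no dendritic cell summit, and that on chromosome 3 shows 11.

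Scores in the stretches were distributed like those of other 3T3 summits. Members had a median score of 33 with quartiles of 25 and 50, and the other 79907 autosomal 3T3 summits a median of 33 with quartiles of 24 and 50. Of the members, 60 (9.22%) reached the 90th percentile of autosomal 3T3 scores, which was 75, against 10.2% of the other summits. These strong members were spread over 37 of the 72 stretches, and 3 stretches held at least 3 of them. The other 35 stretches had no member at or above 75. Within a stretch the highest score was a median of 3.80 times the lowest (1.81 to 8.61 times). The scores of neighbouring members hardly went together (Spearman rho 0.02 over 579 neighbouring pairs in 1 library, against 0.05 over 26710 pairs in shorter chains).

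Summits at the ends of a stretch had a higher median score than those within, with intervals that overlap. First and last members had a median score of 38.5 (95% interval of the median 33 to 45, n = 144) and inner members one of 32 (30 to 34, n = 507). Without the stretch of the highest median score, at the start of chromosome 9, the medians were 37 and 31.5. In 27 of the 72 stretches the highest summit was the first or the last, and such summits made up 22.1% of members. The mean of the end scores exceeded that of the inner scores in 45 stretches and was below it in 27. Shorter chains had the same order, with medians of 35 at the ends and 32 inside in chains of 5 to 7 and in chains of 3 to 4. Score also went with the distance to the nearest 3T3 summit. Members with a neighbour under 2000 bp away had a median score of 28 (n = 98), those whose nearest neighbour lay 2000 to 4000 bp away 32 (n = 386), and those at 4000 bp or more 41 (n = 167). The corresponding medians in chains of 2 to 7 were 27, 32 and 37. The part of spacing in the difference between ends and inside was not tested.

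**Figure D2:**
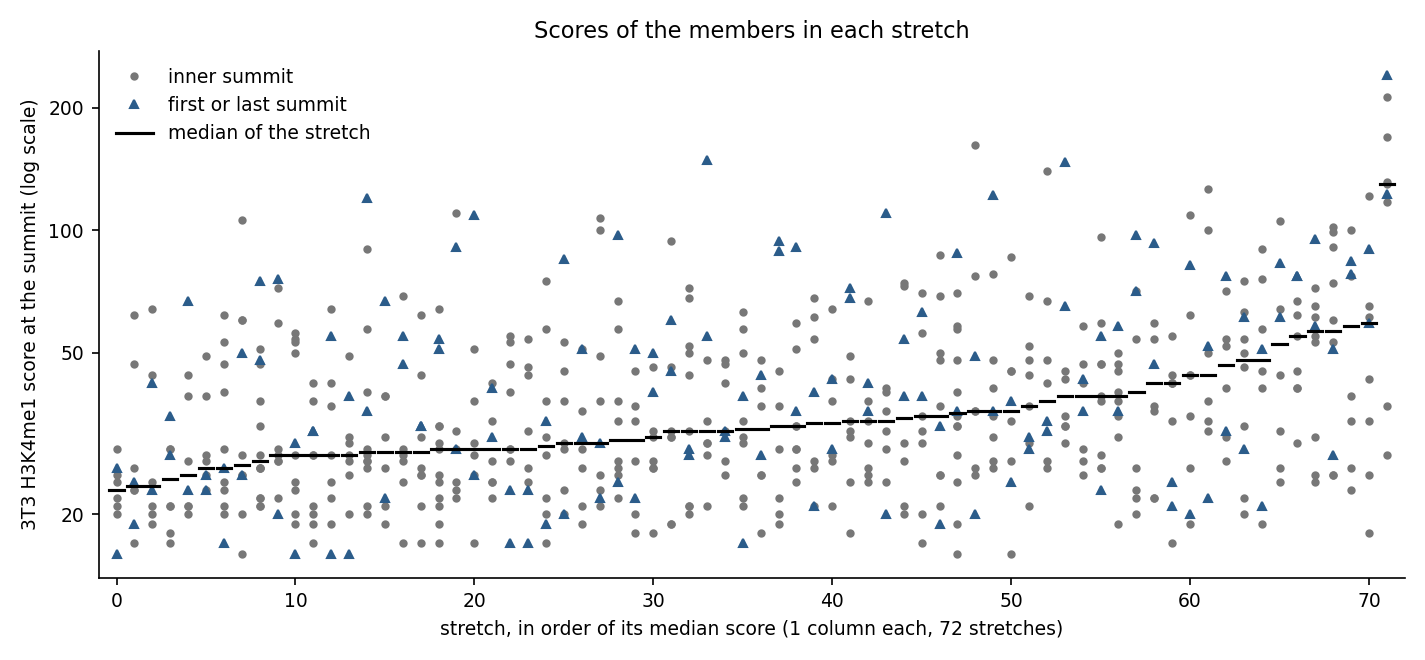
Each column is 1 of the 72 stretches in order of median score; grey circles are inner members, blue triangles the first and last member, black bars the median, and the y axis is the 3T3 score on a log scale. Scores of 1 stretch cover a wide range, and the stretch at the far right, with a median of 130, lies apart from the others.

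The stretch with the highest median score differed from all the rest in its match to the dendritic cell list. It lay at the start of chromosome 9, from 3015508 to 3036089, where the first 3T3 summit was listed at 3000116, and its 9 members scored 123, 117, 169, 212, 28, 131, 37, 130 and 241. Except for the member scoring 37, each had a dendritic cell summit at the same position or 1 bp away, and those scored 121, 132, 167, 231, 28, 143, 128 and 253. Both libraries therefore gave nearly the same heights at nearly the same bases. The last of these dendritic cell summits fell 1 bp beyond the end of the stretch, so that 7 were counted inside. The 3 highest of all members, with scores of 241, 212 and 169, belonged to this stretch. They were followed by 162 on chromosome 11 at 69073034, with the nearest dendritic cell summit 1600 bp away, and by 149 on chromosome 17 at 80888859, where that distance was 4044 bp. In all other stretches together, 2 members were paired within 1 bp. Input DNA, which shows where reads accumulate without the antibody, was not analysed here, and what gives this stretch its scores was not tested. The main values that rest on it are given below with and without it.

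The remaining stretches with high medians were spread over 4 chromosomes. The stretch on chromosome 15 from 77737219 to 77764791 had a median score of 59, and that on chromosome 13 from 41488240 to 41518655 one of 58. A median of 56.5 was found both in the stretch of 10 on chromosome 17 named above and in 1 between 73043717 and 73082306 of chromosome 8. The stretch on chromosome 13 had 4 members at 77 or above (84, 77, 100 and 78) and 4 at 39 or below. It held 2 dendritic cell summits, and no member had one within 1000 bp. On chromosome 8, members scoring 74, 60 and 99 had dendritic cell summits 21, 82 and 7 bp away, with scores of 41, 34 and 82. High 3T3 scores were thus found in stretches with and without dendritic cell summits close to the members.

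Dendritic cell summits were counted inside the stretches, a count that the rule did not use. In all, 243 dendritic cell summits (exact Poisson 95% interval 213 to 276) fell inside, 0.311% of the 78214 on autosomes. Members outnumbered them 2.68 to 1. A stretch held a median of 3.5 dendritic cell summits, with a range from 0 to 11. None was found in 14 stretches, 1 or 2 in 13, 3 to 5 in 31 and 6 or more in 14. In 2 stretches they were at least as many as the members. The number of dendritic cell summits went little with the number of members (Spearman rho 0.12 over 72 stretches), with span (0.13) or with median 3T3 score (0.06). Of the dendritic cell summits inside, 174 of 243 (71.6%, 65.5 to 77.2) lay within 1000 bp of a member, 72 of them within 100 bp, and 69 lay more than 1000 bp from every member. Positions within 1000 bp of a member made up 52.3% of the length of the stretches. In chains of 2 to 7 summits the same share of dendritic cell summits was 76.2% (75.4 to 76.9), with 52.5% of their length that near to a 3T3 summit. Without the stretch at the start of chromosome 9, 236 dendritic cell summits were inside, 167 of them (70.8%) within 1000 bp of a member and 65 within 100 bp.

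**Figure D3:**
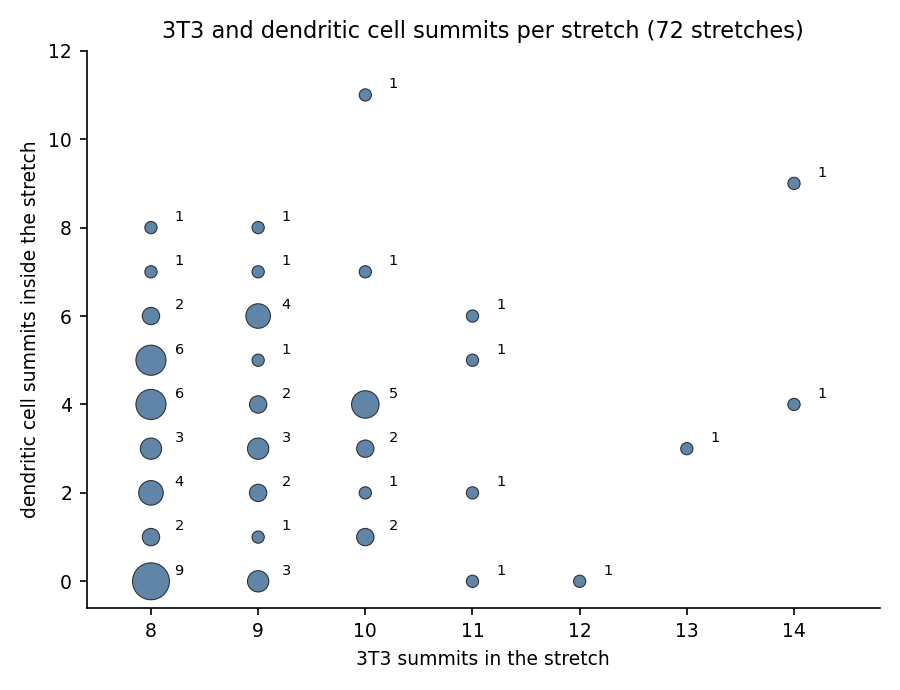
Circles give the number of 3T3 summits (x axis) and of dendritic cell summits (y axis) in a stretch, with area and printed number for how many of the 72 stretches share the pair of values. Of the 34 stretches of 8 summits, 9 held no dendritic cell summit, and the stretch with 11 held 10 3T3 summits.

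Per length, the stretches held dendritic cell summits as shorter 3T3 chains did. Their density was 11.2 per 100 kb (9.83 to 12.7) and that of 3T3 members 30.0 per 100 kb. In chains of 2 to 7 summits the density of dendritic cell summits was 11.3 (11.1 to 11.6). It was 8.08 (7.26 to 8.97) in the flanks, taken as the stretch's own length on either side, with 8.06 on the side of lower and 8.10 on that of higher coordinates. In 39 stretches there were more dendritic cell summits inside than in the mean of its flanks, in 24 fewer and in 9 as many. Flanks also held fewer 3T3 summits, 7.51 per 100 kb, and by the rule none of these lies within 6000 bp of the ends. These intervals treat summits as independent, whereas summits of 1 stretch share a region. Without the stretch at the start of chromosome 9 the density inside was 10.97. The dendritic cell summits inside had a median score of 42 (38 to 46), or 41 without that stretch, against 39 in chains of 2 to 7, 39 (35 to 42) in the flanks and 36 on all autosomes.

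Members were shared with dendritic cells about as often as other 3T3 summits. Of the 651 members, 192 (29.5%, 26.0 to 33.2) had a dendritic cell summit within 1000 bp, beside 29.9% of all autosomal 3T3 summits. Without the stretch at the start of chromosome 9 the share was 28.5%. By chain size it was 27.1% (26.6 to 27.5) for solitary summits, 33.3% (32.7 to 33.9) for chains of 2, and between 30.1 and 32.3% for chains of 3 to 7. Inner members were shared in 30.2% (26.2 to 34.4) and end members in 27.1% (20.0 to 35.1) of cases. The far end of the distances was thinner for members. Dendritic cell summits were over 20 kb away from 15.4% of members (12.7 to 18.4), against 24.9% of the other summits (24.6 to 25.2), and within 5000 bp none was found for 32.7% (29.1 to 36.5) against 43.8% (43.5 to 44.2). The median distance was 2588 bp for members and 3557 bp for the others. Of those 79907 other summits, 36222 were solitary, and the distances are not given for chains of 2 to 7 alone. Whether the difference is particular to dense stretches or holds for any chained summit was not tested. Members of a stretch share neighbours, so these intervals are too narrow.

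**Figure D4:**
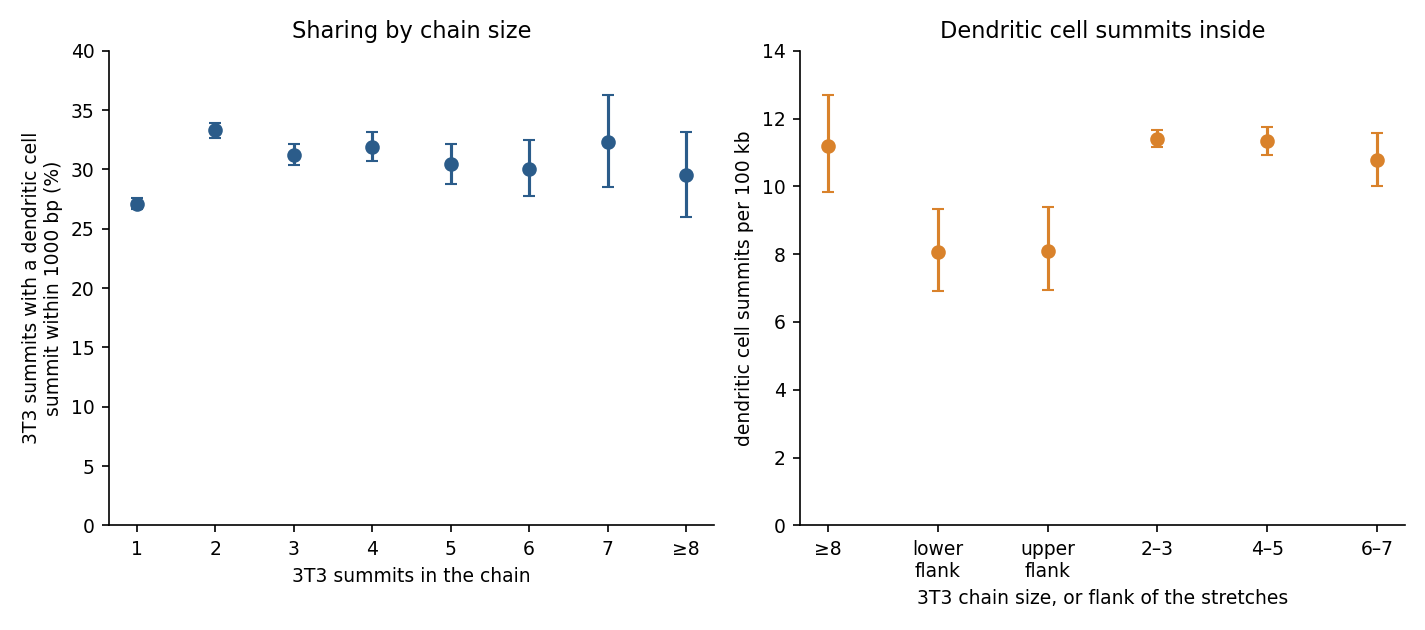
Left, the percentage of 3T3 summits with a dendritic cell summit within 1000 bp, by chain size; right, dendritic cell summits per 100 kb in the stretches (8 or more summits), in their flanks and in shorter chains. Bars are exact 95% intervals for counting error. At 29.5% the stretches lie between solitary summits (27.1%) and chains of 2 to 7. At 11.2 per 100 kb they lie among the chains of 2 to 7, and the flanks lie at 8.06 and 8.10.

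The 14 stretches without a dendritic cell summit (19.4%, 11.1 to 30.5) lay on 9 chromosomes. Among all 3T3 chains of 6 or more summits, these stretches included, 22.7% held none. Those chains spanned a median of 21074 bp, against 29361 bp for the stretches. A longer chain has more room to hold a dendritic cell summit, so the shares are not like for like. The 5 of the 14 with the most members were those of 12 and 11 summits on chromosomes 11 and 15 described above and 3 of 9 summits. The latter had median scores of 28 (chromosome 3 from 83532620 to 83564641), 31 (chromosome 1 from 180514988 to 180546171) and 30 (chromosome 11 from 68407815 to 68436452). On chromosome 11 the last member scored 85, the first 20, and no dendritic cell summit was called in either flank. That stretch was the closest of all to another, lying 136821 bp from a stretch of 8 summits that starts at 68245054 and holds 1 dendritic cell summit. A dendritic cell summit lay a median of 22889 bp from the nearer end of these 14 stretches (1842 to 195709 bp), and more than 20 kb away for 8 of them. The 14 stretches had median scores from 28 to 48 and a median span of 27.8 kb, against 23 to 130 and 29.6 kb for the 58 with dendritic cell summits. The ranges of the 2 sets overlapped in both measures.

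Dendritic cell summits were most numerous in the stretch on chromosome 3 from 79033658 to 79076829, with 11 (5.49 to 19.7) among 10 members. Their scores ran from 15 to 87, and 5 of the 10 members had one within 1000 bp. The member at the upper end scored 39 and had a dendritic cell summit of 55 at 6 bp. Next came the stretch of 14 on chromosome 10, with 9, and with 8 each that on chromosome 13 from 22108466 to 22143922 and that between 34643695 and 34673081 of chromosome 19. Of the 3 stretches with 7, that with the longest span lay on chromosome 17, from 32370045 to 32400853, where 5 of the 10 members were shared. In the stretch on chromosome 19, the last of its 8 members scored 147 and had no dendritic cell summit closer than 1000 bp. The other members of that stretch scored between 30 and 65.

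Dendritic cells had dense stretches of their own. The same rule applied to their list gave 97 stretches with 853 summits and a median span of 27.1 kb. Of the 72 3T3 stretches 3 (4.17%, 0.868 to 11.7) overlapped 1 of these, as did 3 of the 97 dendritic cell stretches (3.09%). The 3 were those on chromosome 3 from 79033658, on chromosome 19 from 34643695 and at the start of chromosome 9. Without that at the start of chromosome 9 the share was 2.82%. Among shorter 3T3 chains, an overlap was found for 0.411% (0.314 to 0.529) of the 14591 chains of 2 to 3 summits, with a median span of 4.34 kb, and for 0.829% (0.484 to 1.32) of the 2051 of 4 to 5, at 12.1 kb. For the 333 chains of 6 to 7, at 20.2 kb, it was 1.20% (0.328 to 3.05), an interval that overlaps that of the dense stretches, and a longer chain has more room to overlap. Counted by summit, 21 of the 651 members (3.23%, 2.01 to 4.89) lay inside a dense dendritic cell stretch, against 307 of all 80558 autosomal 3T3 summits (0.381%). Without the stretch at the start of chromosome 9, 13 of 642 members (2.02%, 1.08 to 3.44) did. All of these members came from the 3 overlapping stretches. Summits of 1 stretch share a region, so both intervals by summit are too narrow. With summits within 1000 bp merged in both lists, the overlap was 1.41% of 3T3 stretches. Inside the dendritic cell stretches lay 10.98 3T3 summits per 100 kb (9.78 to 12.3), close to the reverse density. There 7 of 97 stretches (7.22%, 2.95 to 14.3) were empty of the other cell type, against 14 of the 72 3T3 stretches (19.4%, 11.1 to 30.5). These intervals overlap, but an overlap does not measure the difference, which was not tested.

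Scores at shared members were compared pair by pair, relative to the median ratio of all 24061 autosomal pairs, since the lists are not scaled to each other. The 190 member pairs had a median relative log2 ratio of 3T3 to dendritic cell score of 0.03 (-0.12 to 0.14). At 30 pairs the dendritic cell score exceeded that median ratio at least 2-fold (15.8%, 10.9 to 21.8), beside 11.7% of all pairs. At 15 pairs the 3T3 score did so (7.89%, 4.49 to 12.7), beside 12% of all pairs. Both intervals include the value for all pairs. The 190 pairs came from 55 stretches, and pairs of 1 stretch share a region, so the intervals for member pairs are too narrow. Over the member pairs the 2 scores had a Spearman rho of 0.31, and of 0.23 over the 182 pairs left without the stretch at the start of chromosome 9, against 0.24 over other pairs. On chromosome 8 the 17 member pairs had a median of 0.37, and the 1383 other pairs of that chromosome 0.47. The 173 member pairs of the other chromosomes had a median of 0.00.

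**Figure D5:**
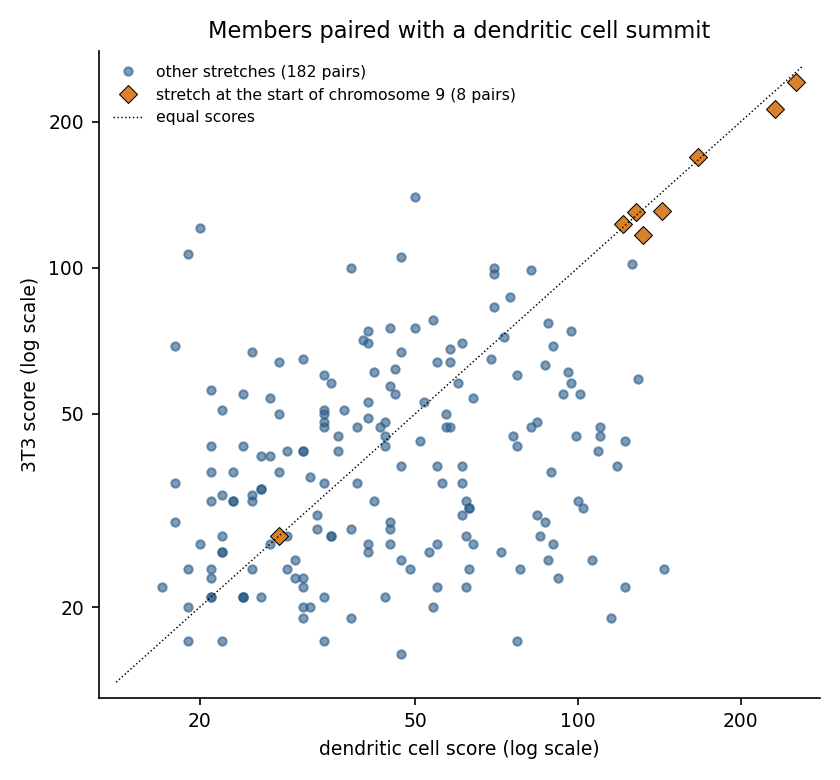
Scores of the 190 members paired with a dendritic cell summit, with the dendritic cell score on the x axis and the 3T3 score on the y axis, both on log scales. The 8 pairs of the stretch at the start of chromosome 9 (orange) lie along the line of equal scores up to 241 and 253, and the other 182 pairs (blue) scatter widely.

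Stretches were unevenly placed over the autosomes. Chromosome 11 held 11 of the 72, and chromosomes 8 and 17 held 7 each. Members made up 1.71% (1.32 to 2.19) of the 3T3 summits of chromosome 17, 1.65% (1.35 to 2.01) of those of chromosome 11 and 1.56% (1.13 to 2.09) of those of chromosome 19. Shares were lowest, where any stretch was found, on chromosomes 7 (0.202%, 0.0872 to 0.397) and 14 (0.262%, 0.113 to 0.516), with 1 stretch each. None was found on chromosomes 16 and 18, among 2844 and 2864 summits, where the limit of 3 counts is a share of 0.105% on each. That limit counts summits singly, but by the rule members come only in runs of 8 or more. It is therefore too low, and the intervals of the other chromosomes are too narrow. Over the 19 autosomes the share of members went with the number of 3T3 summits per Mb (Spearman rho 0.80), which was 50.4 on chromosome 11 and 26.5 on chromosome 7. Both measures come from the same list and chromosomes are not replicates. Chromosome 8, with 43.6 summits per Mb, had 1.13% (0.867 to 1.44) of its summits in stretches. Of the 72 stretches, 9 had another within 1 Mb and none had one within 100 kb.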

How the data were processed

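ChIP-seq of H3K4me1 was taken from 1 library of unstimulated 3T3 cells and 1 of unstimulated dendritic cells. Reads were aligned to mm9 with Bowtie and peaks called with MACS 1.4, per the submitters' processing notes. The calling threshold was 1e-04 (a p-value set in MACS), with a shift of 150 bp, no model and no local background, per the file headers. For each peak the authors deposited a 1 bp summit and a whole-number score, made with MACS and read here as signal height, although the header does not name it. No scaling between lists and no read total was found in the sources used here, so depth is unknown.

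Autosomal 3T3 summits 6000 bp or less apart were chained, and chains of 8 or more kept. A summit was shared if the other list had one within 1000 bp, and pairs are mutually nearest shared summits. Shares carry exact Clopper-Pearson and counts exact Poisson 95% intervals, and medians order-statistic intervals. These cover counting error only. Named stretches are the 10 with the most summits, the 5 with the highest median score, the 5 with the most dendritic cell summits, and the 5 with the most summits among those with no dendritic cell summit, besides the 5 highest members. Ties in number went to the longer span. Stretches and rules were chosen with earlier results of these data known. Alternatives were other gaps, sizes, score limits, distances and edges, merging, and omission of chromosome 8. Planned gene and motif steps were not run: positions are mm9 and the tables at hand are GRCm38. Chaining was tested on simulated data. Python 3.11.15, numpy 2.4.6, pandas 2.3.3, scipy 1.17.1 and matplotlib 3.10.9 were used.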

Additional observations from a re-analysis of the deposited data

How the results depend on the processing

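Each alternative to the chaining rule replaces the members themselves. With gaps of up to 4000 bp there was 1 stretch with 10 members, 22251 bp long, a score difference to other summits of -5, and 3 dendritic cell summits (13.5 per 100 kb), with 0% empty and 0% overlapping a dense dendritic cell stretch. With up to 8000 bp there were 358 stretches with 3408 members, a median span of 36334 bp, a score difference of 4, 1422 dendritic cell summits and 13.1% overlapping. At least 6 summits gave 405 stretches with 2733 members, a median span of 21074 bp and 963 dendritic cell summits. At least 10 gave 20 stretches with 217 members, 37931.5 bp and 77 dendritic cell summits, with 10% empty and 0% overlapping. Chaining the higher-scoring 50% of the 3T3 summits gave 2 stretches with 16 members, 25965 bp, a score difference of 27, 11 dendritic cell summits (21.2 per 100 kb), 0% empty, 75% of members shared and 50% overlapping. The stretch at the start of chromosome 9, without its member scoring 28, was 1 of these 2, and 100% of its members were shared. The values of this alternative therefore rest largely on that stretch and are not given without it. The shared share of members was 18.0, 21.7 and 42.4% within 250, 500 and 2000 bp. Counting the higher-scoring 50% of the dendritic cell summits gave 6.49 per 100 kb. The other alternatives, among them omission of chromosome 8 and, chosen after seeing the data, of the stretch at the start of chromosome 9, left every value within its interval or 1.5 times the count. No paired analysis was possible because each cell type is 1 library. With no read totals, summits absent from a list may lie below its calling threshold.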

Other observations

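The X chromosome, outside the rule, held 3 3T3 chains of 8 or more summits. They comprised 26 of its 1300 3T3 summits (2%, 1.31 to 2.92), on X from 74755417 to 74790502, from 156927477 to 156959341 and from 166131531 to 166161465. Their median scores were 26, 23.5 and 26, and their highest scores 46, 40 and 36. They held 5, 4 and 0 dendritic cell summits.

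Before the stretch at the start of chromosome 9, and separated from it by 8064 bp, lay 4 more 3T3 summits, at 3000116, 3002991, 3004808 and 3007444. They were looked up after the values of the stretch had been seen. Their scores were 252, 65, 96 and 30. The nearest dendritic cell summits lay 0 or 1 bp away and scored 255, 73, 104 and 31.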
